A study of Mus musculus with 18 samples.

Results

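The genes described here are 37 mouse interferon-response genes, a list of regulators, RNA sensors, antiviral proteins, interferon-inducible GTPases, antigen-processing proteins and chemokines. They were taken by symbol from a table of messenger RNA levels for 23474 gene identifiers, where 36 of them were found, and Gbp5 was not analysed here. Of the 36, 35 had at least 1 FPKM in at least 3 libraries of epididymal fat, and the same number did so in liver. FPKM, fragments per kilobase of transcript scaled to the mapped fragments of a library, is a level per transcript length. Oas3 fell just outside the limit, with a third-highest value of 0.86 FPKM in fat and 0.358 FPKM in liver. Just inside it were Usp18 in fat, at 2.65 FPKM, and Ifit2 in liver, with a third-highest value of 1.65 FPKM.

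The study asked how epididymal white adipose tissue (eWAT, the fat pad beside the epididymis) and liver differ between mice that gain or resist obesity on a high-fat diet. All mice were male and 17 weeks old, of a strain written C57BL/6J in the growth protocol and C56BL/6J in the sample labels, with no transgene or drug named. From 5 weeks of age they received a normal diet (ND) or a high-fat diet for 12 weeks, and the high-fat animals were labelled prone (HP) or resistant (HR). Each group had 10 mice and 3 libraries per tissue, 18 libraries in all. The labels do not say how prone and resistant mice were told apart, whether a library was 1 mouse or a pool, or whether equal numbers in the tissues mean the same mouse.

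Interferons are secreted proteins that cells release when they sense viral or other foreign nucleic acid. Type I interferons act through the receptor IFNAR and a complex that includes STAT2 and IRF9, which binds the interferon-stimulated response element (ISRE). Type II interferon, interferon gamma, acts through its own receptor, and its target genes carry the gamma-activated site (GAS). The induced proteins block viral replication, help to load peptides onto class I molecules and attract T cells, and macrophages are among the many cells that make them.

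To show where these elements occur, stretches upstream of the transcription start were taken from RefSeq promoter windows (assembly GRCm38.p6), which were found for 30 of the 37 genes. The ISRE was searched as GAAA, any 2 bases and GAAA again, or TTTC, any 2 bases and TTTC on the other strand, and the GAS as TTCNNNGAA, which reads the same on the other strand, in the 250 bases before the start. Capitals in the sequences mark these matches, and all are written 5′ to 3′ on the gene's own strand up to the base before the start. The first pair are neighbours, Igtp (chr11:58199456-58199555, plus strand) and Irgm2 (chr11:58214877-58214976, plus strand), which encode immunity-related GTPases.
Igtp: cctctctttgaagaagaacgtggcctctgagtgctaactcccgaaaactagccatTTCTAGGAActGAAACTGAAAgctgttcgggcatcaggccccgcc
Irgm2: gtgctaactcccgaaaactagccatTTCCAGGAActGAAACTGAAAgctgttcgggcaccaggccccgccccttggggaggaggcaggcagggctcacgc
In both, the first base of the ISRE lies 11 bases after the first base of the GAS. With a shift of 30 bases, 68 of the 70 bases compared were identical. A short stretch just after the start in the Irgm2 window was found in no GENCODE transcript of Irgm2, and transcripts of other genes were not searched.

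The guanylate-binding proteins Gbp2 (chr3:142620563-142620662, plus strand) and Gbp7 (chr3:142530216-142530335, plus strand) are shown for the same GTPase group, with the ISRE on the opposite strand.
Gbp2: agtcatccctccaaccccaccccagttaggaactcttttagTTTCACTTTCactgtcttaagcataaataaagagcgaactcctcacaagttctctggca
Gbp7: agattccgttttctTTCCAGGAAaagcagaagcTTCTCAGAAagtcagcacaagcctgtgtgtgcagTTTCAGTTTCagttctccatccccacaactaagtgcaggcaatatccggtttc
The antiviral genes Isg15 (chr4:156200819-156200938, minus strand), Oas1a (chr5:120907526-120907645, minus strand) and Rsad2 (chr12:26456453-26456592, minus strand) are shown because their levels moved differently from the GTPases or between the tissues.
Isg15: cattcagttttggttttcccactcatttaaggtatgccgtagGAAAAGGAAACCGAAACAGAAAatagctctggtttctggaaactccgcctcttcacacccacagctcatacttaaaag
Oas1a: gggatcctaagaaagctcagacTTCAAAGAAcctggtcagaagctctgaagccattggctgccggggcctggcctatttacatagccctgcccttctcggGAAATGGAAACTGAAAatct
Rsad2: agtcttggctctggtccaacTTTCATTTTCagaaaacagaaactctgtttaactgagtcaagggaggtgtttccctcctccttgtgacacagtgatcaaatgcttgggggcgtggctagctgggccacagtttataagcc
The run of capitals in Isg15 holds 3 overlapping ISRE matches and that in Oas1a holds 2.

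Cxcl10 (chr5:92348890-92349119, minus strand) encodes a T cell chemokine, and Ubd (chr17:37193642-37193891, plus strand) encodes the ubiquitin-like protein FAT10, the member with the largest differences below.
Cxcl10: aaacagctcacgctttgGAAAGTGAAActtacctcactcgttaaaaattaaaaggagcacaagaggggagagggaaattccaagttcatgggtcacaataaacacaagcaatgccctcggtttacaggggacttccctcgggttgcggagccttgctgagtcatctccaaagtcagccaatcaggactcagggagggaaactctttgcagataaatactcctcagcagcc
Ubd: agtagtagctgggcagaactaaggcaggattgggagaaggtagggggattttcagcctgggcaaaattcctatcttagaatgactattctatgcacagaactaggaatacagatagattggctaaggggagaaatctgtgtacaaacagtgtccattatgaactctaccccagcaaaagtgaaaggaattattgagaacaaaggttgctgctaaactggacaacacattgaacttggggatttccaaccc
The Ubd stretch has no match to either motif, which says only that these letters are not in this window. An ISRE match stood in 16 of the 30 genes with a window (53.3%), against 3.46% of all 27025 genes that have one. A GAS match stood in 8 of 30 (26.7%), against 8.13% of all such genes. All 7 GTPase genes with a window, Gbp5 among them, had an ISRE match and 4 of the 7 a GAS match, while the 4 antigen-processing genes had no ISRE match. Of 12 antiviral genes with a window 7 had an ISRE match. A match is a description of the letters and not of a bound site.

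In eWAT, 2 libraries held large amounts of spermatid messenger RNA, ND 1 and HR 2, with 92413 and 11231 FPKM summed over Prm1, Prm2, Tnp1 and Tnp2. ND 3 and HP 1 carried 2282 and 1738 FPKM of them, the other 5 no more than 128, and liver 0. ND 1 was the lowest ND library for 32 of the 36 members and HR 2 the lowest HR library for 35 of 36. The exception in HR 2 was Dhx58, at 19.8 FPKM. Transcripts of epididymis epithelium (5 genes) summed to 19033 FPKM in ND 1 and 1172 FPKM in HP 2, against at most 12.7 in the other eWAT libraries. HP 2 was the highest HP library for 21 of 36 members, and the part of these transcripts in the results was not tested. Calls in eWAT are therefore given over 9 libraries and over the 7 without ND 1 and HR 2, where ND and HR hold 2 libraries each, and without HP 2 where that ends the call. The 5 adipocyte markers summed to 16170 to 29896 FPKM in those 7, and hepatocyte markers marked the liver libraries, although Alb is listed at 0 in liver HP 3. In liver, HP 2 and HP 3 also held skeletal muscle transcripts, with 98.9 and 19.9 FPKM over 5 genes against at most 0.955 in the other 7.

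The members differed in how far they belonged to fat or to liver. Over the 7 eWAT and 9 liver libraries, 7 of 36 members had all eWAT values above all liver values and 12 had them below, against 53.6% and 10.2% of all genes tested, and 17 overlapped. Ifi27l2a, a small mitochondrial interferon-induced protein, had a median of 780 FPKM in eWAT and 9.10 FPKM in liver, 85.7 times as much. Among the 7, the guanylate-binding protein Gbp2 followed at 26.3 and 2.09 FPKM, a ratio of 12.5. Ubd had medians of 126 and 1.83 FPKM, a ratio of 68.7, with ranges that overlapped. In liver, the GTPase Iigp1 was highest among the members with a median of 155 FPKM, 13.0 times its eWAT median. The regulators Irf7, Irf9, Stat2 and Usp18 all lay higher in liver, with median ratios of 2.27, 1.76, 2.31 and 7.35. These levels compare tissues with the diets pooled, so a ratio can also hold a diet difference. On normal diet Ubd had 8.25 and 4.80 FPKM in eWAT ND 2 and ND 3. In liver ND it had 0.0836, 1.21 and 0.827 FPKM. Fewer cells of a type and less RNA per cell cannot be told apart in these levels.

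**Figure D1:**
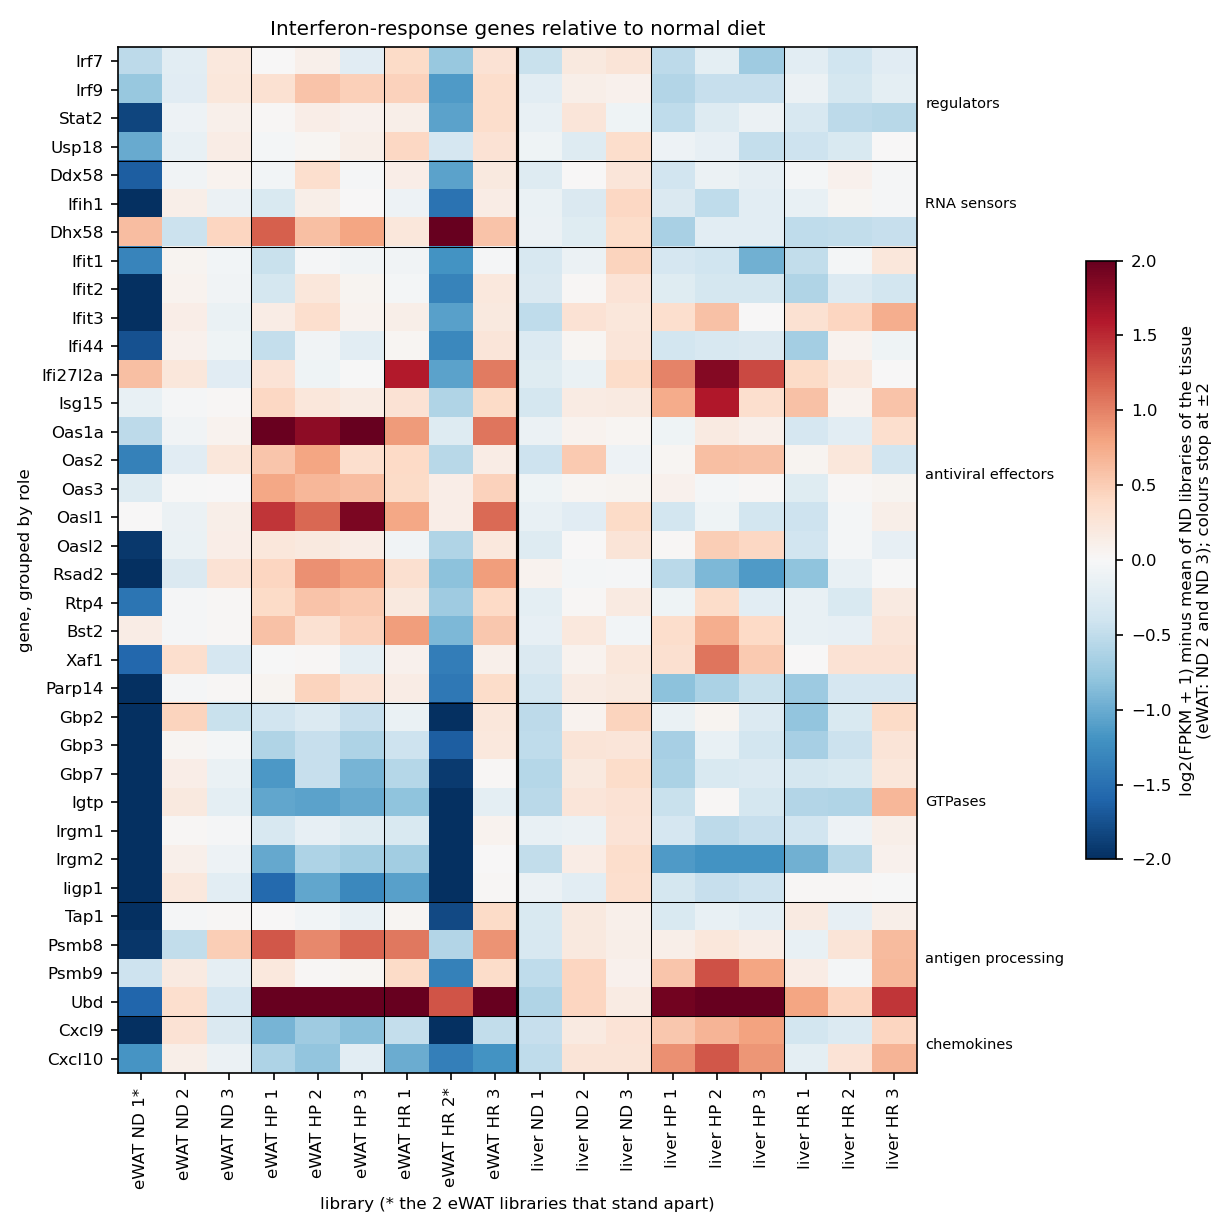
Each row is a member grouped by role and each column a library. Colour gives log2(FPKM + 1) minus the mean of the tissue's ND libraries (ND 2 and ND 3 in eWAT), with colours ending at 2 on either side. Ubd is raised in every HP library of both tissues, the 7 GTPases in the eWAT HP libraries lie below the mean of ND 2 and ND 3 and above ND 1, and the columns marked with an asterisk are ND 1 and HR 2.

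Between HP and ND in eWAT, Ubd rose most, the oligoadenylate synthetase family genes Oas1a and Oasl1 rose with it, and the proteasome subunit gene Psmb8 rose too, while the GTPases Iigp1 and Igtp and the chemokine Cxcl9 fell, of which Iigp1 and Cxcl9 turned to positive values over 9 libraries. These are calls at an adjusted p under 0.05 from limma, on log2(FPKM + 1), over the 7 libraries. They are 4 members higher and 3 lower of 35, against 15.7% and 7.4% of all 13054 genes tested, so 11.4% of members were higher and 8.57% lower. The median log2 difference was 0.05 for the members and 0.01 for all genes. Quantile normalization or rescaling to the same sum made the split 5 higher and 2 lower. There were 12 calls without ND 3, 4 without HP 1 or HP 2 and 3 without HP 3. Over 9 libraries 2 members were higher, Ubd and Oas1a, and 0 lower, against 2.07% and 0.0416% of 14430 genes. At an unadjusted p under 0.05 there were 4 members, against 11.4% of genes. HP lay wholly above ND for 12 of 35 members and wholly below for 0, against 20.8% and 5.72% of genes.

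Ubd marks proteins for the proteasome as a ubiquitin-like tag and responds to interferon gamma and tumour necrosis factor. It had 1.43, 8.25 and 4.80 FPKM in ND 1, ND 2 and ND 3, 265, 204 and 229 FPKM in HP 1, HP 2 and HP 3, and 91.1, 16.6 and 126 FPKM in HR 1, HR 2 and HR 3. The 3 groups were fully separate, with HP highest and HR between. HP averaged 233 ± 30.8 FPKM (SD, n = 3). Over 7 libraries the HP minus ND difference was 4.99 on the log2 scale (SE 0.24, limma adjusted p = 9.28e-05), and it was called in each of 15 alternatives. Over 9 libraries it was 5.52 (SE 0.77, adjusted p = 0.0246). That call was lost without ND 2, ND 3, HP 1, HP 2, HP 3 or HR 1, at adjusted p of 0.057 to 0.176.

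Oas1a encodes an oligoadenylate synthetase that activates RNase L when it binds double-stranded RNA. Its values were 1.25, 2.09 and 2.37 FPKM in ND, 11.7, 10.1 and 12.3 FPKM in HP and 4.85, 1.69 and 5.79 FPKM in HR. HP lay above every other library. The HP minus ND difference over 7 libraries was 1.93 (SE 0.16, adjusted p = 0.000463), called in all 15 alternatives, and over 9 libraries it was 2.11 (SE 0.42, adjusted p = 0.0482). Leaving out any library but HR 2 ended the call over 9 libraries, with adjusted p from 0.0687 to 0.258. The close relative Oas1g, which is not a member, rose by 1.32 over 7 libraries, and reads of the pair could be shared in the counting.

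Oasl1, an oligoadenylate synthetase-like protein that restrains Irf7 translation, had 0.878, 0.72 and 1.03 FPKM in ND and 4.04, 3.14 and 5.91 FPKM in HP. In HR it had 2.19, 1.04 and 3.09 FPKM, so that HR 2 lay just above the highest ND value. The HP minus ND difference over 7 libraries was 1.49 (SE 0.27, adjusted p = 0.00996), called in 14 of 15 alternatives. Over 9 libraries it was 1.49 and not called (adjusted p = 0.102). Oas3, left out of the test for its low level, had 0.0232, 0.211 and 0.224 FPKM in ND and 1.08, 0.933 and 0.86 FPKM in HP.

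Psmb8 encodes an inducible catalytic subunit of the immunoproteasome. It had 0.933, 4.31 and 9.41 FPKM in ND, 16.6, 13.5 and 15.6 FPKM in HP and 14.5, 3.94 and 12.8 FPKM in HR. All HP values lay above ND, where the libraries themselves were far apart. The difference over 7 libraries was 1.12 (SE 0.28, adjusted p = 0.0311). Without HP 1, HP 2, HP 3, HR 1 or HR 3 it was no longer called, at adjusted p of 0.0577 to 0.102, nor over 9 libraries (1.77, adjusted p = 0.343). Its partner subunit Psmb9 (0.09, adjusted p = 0.713) and the peptide transporter gene Tap1 (-0.06, adjusted p = 0.779) were not called.

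The interferon-inducible GTPases coat vacuoles that hold pathogens. Over 7 libraries all 7 measured ones had lower values in HP than ND, with a median of -0.78, and 2 were called. Over 9 libraries the direction turned, with 6 of 7 positive, a median of 0.42 and 0 called, with ND 1 the lowest ND library for each of the 7. Without all 4 libraries with spermatid transcripts, 7 of 7 were negative again. That fit leaves ND 2 alone in ND, the highest ND library for each of the 7, so the sign rests on that library. Under a pseudocount of 0.1, quantile normalization or rescaling, 7 of 7 were negative over 7 libraries, with 1 or 2 called.

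Iigp1 had 0.11 FPKM in ND 1 and 29.8 and 21.9 FPKM in ND 2 and ND 3, 8.04, 12.0 and 9.86 FPKM in HP, and 11.5, 2.90 and 25.9 FPKM in HR. All HP values lay below ND 2 and ND 3, while HR spanned both. The difference over 7 libraries was -1.29 (SE 0.34, adjusted p = 0.037). It was not called without ND 2, HP 1, HP 2 or HP 3, with adjusted p from 0.0661 to 0.107. Over 9 libraries the direction turned, at 0.23 (adjusted p = 0.928).

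Igtp had 1.73, 19.6 and 14.6 FPKM in ND, 7.71, 7.55 and 7.88 FPKM in HP and 9.23, 2.51 and 14.6 FPKM in HR. The HP libraries were close to each other and below ND 2 and ND 3. Its difference over 7 libraries was -1.04 (SE 0.22, adjusted p = 0.0163), not called without HP 2 (0.0542) or HP 3 (0.06), nor over 9 libraries (-0.13, adjusted p = 0.938). Irgm2, whose upstream letters resemble those of Igtp, had 0.556, 19.2 and 16.6 FPKM in ND and 8.27, 11.3 and 10.6 FPKM in HP (-0.78, SE 0.24, adjusted p = 0.0603).

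Irgm1, a regulator of the other immunity-related GTPases, had 1.27, 22.3 and 21.4 FPKM in ND and 17.2, 19.3 and 18.1 FPKM in HP (-0.25, adjusted p = 0.274). Gbp7, Gbp3 and Gbp2 had differences of -0.85, -0.56 and -0.38 with adjusted p of 0.0632, 0.0919 and 0.356. Within groups the GTPases shared an order. ND 2 was the highest ND library and HR 3 the highest HR library for all 7.

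The chemokines Cxcl9 and Cxcl10 draw T cells and natural killer cells through the receptor CXCR3. Cxcl9 had 0.973, 23.5 and 15.4 FPKM in ND, 9.48, 11.2 and 10.2 FPKM in HP and 13.4, 3.19 and 13.2 FPKM in HR. HP lay below ND 2 and ND 3 and above ND 1. The difference over 7 libraries was -0.83 (SE 0.19, adjusted p = 0.0233), not called without HP 1, HP 2 or HP 3, at adjusted p of 0.0523 to 0.0851. Over 9 libraries the direction turned, at 0.28 (adjusted p = 0.881). Cxcl10 had 1.17, 4.33 and 3.57 FPKM in ND, 2.23, 1.86 and 3.27 FPKM in HP and 1.48, 0.919 and 1.15 FPKM in HR (-0.54, adjusted p = 0.157).

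Further antiviral members had HP above ND in every library of the 7 without passing the test. Rsad2 (viperin), an enzyme that makes a chain-terminating nucleotide, had 0.226, 3.85 and 6.16 FPKM in ND and 6.90, 10.1 and 9.41 FPKM in HP (0.72, adjusted p = 0.101). Bst2 (tetherin), which holds budding virus at the membrane, had 38.0, 33.7 and 34.6 FPKM in ND and 51.8, 42.4 and 47.3 FPKM in HP (0.45, adjusted p = 0.0627). Every HP value was above every ND value for both, and neither was called.

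Isg15, a ubiquitin-like modifier, had 4.99, 5.60 and 5.76 FPKM in ND and 7.92, 6.80 and 6.45 FPKM in HP (0.27, adjusted p = 0.257). Parp14, an ADP-ribosyltransferase, had 0.896, 10.9 and 11.4 FPKM in ND and 11.6, 15.5 and 13.9 FPKM in HP (0.26, adjusted p = 0.297). The antiviral members Ifit1, Ifit2, Ifit3 and Ifi44 were not called, with differences of -0.18, -0.03, 0.18 and -0.26. Over 7 libraries 13 of 35 members had HP wholly above ND and 8 wholly below, against 29.5% and 20.1% of genes tested.

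Of the signal regulators, Irf7, the interferon-induced transcription factor of the amplification loop, had 7.49, 9.48 and 13.1 FPKM in ND, 11.2, 12.0 and 9.45 FPKM in HP and 14.9, 6.18 and 13.8 FPKM in HR (HP minus ND over 7 libraries -0.04, adjusted p = 0.891). Irf9 had 7.32, 11.0 and 15.5 FPKM in ND and 16.3, 19.8 and 18.5 FPKM in HP (0.45, adjusted p = 0.117). None of the 4 regulators was called, and the groups overlapped for Irf7. Stat2 had 1.74, 8.11 and 9.49 FPKM in ND and 8.92, 9.70 and 9.35 FPKM in HP (0.08, adjusted p = 0.735). Usp18, which removes Isg15 and damps receptor signalling, had 0.628, 1.96 and 2.65 FPKM in ND and 2.21 to 2.55 FPKM in HP (0.04, adjusted p = 0.897). The RNA sensors Ddx58, Ifih1 and Dhx58 had differences of 0.09, -0.06 and 0.86, none called (adjusted p = 0.0948 for Dhx58).

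**Figure D2:**
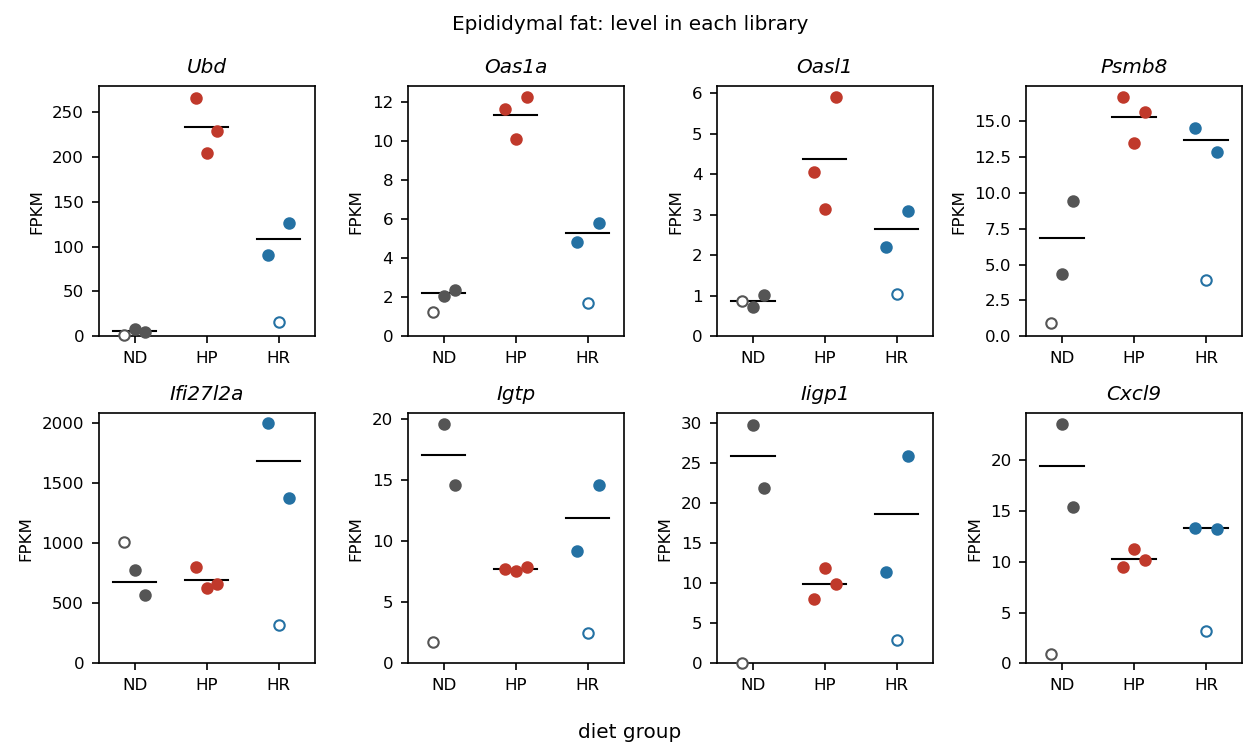
FPKM of 8 members in eWAT by diet group, each panel with its own scale from 0. Each point is a library, bars are means of the filled points, and open points are ND 1 and HR 2. Ubd, Oas1a and Oasl1 are highest in HP, Ifi27l2a is highest in the filled HR libraries, and Igtp, Iigp1 and Cxcl9 lie lower in HP than in ND 2 and ND 3 but above ND 1.

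Resistant mice against normal diet gave 3 higher members and 0 lower over 7 libraries among 35 (8.57% higher), against 3.85% and 0.291% of genes tested. There were 4 calls without ND 3 and 1 without any HP library, HR 1 or HR 3. Ubd rose by 3.88 (SE 0.27, adjusted p = 0.00178) and was called in 14 of 15 alternatives, the exception being all 9 libraries (3.54, adjusted p = 0.99). Oas1a rose by 0.97 (SE 0.18, adjusted p = 0.0359), which was lost without ND 2, any HP library, HR 1 or HR 3, at adjusted p of 0.0585 to 0.247. Over 9 libraries 0 of 35 members were called, against 0% of all genes (limma), with 1 member at an unadjusted p under 0.05, against 2.72% of genes. HR lay wholly above ND for 17 members and below for 2 over 7 libraries (24.9% and 19.8% of genes). Over 9 it did so for 2 and 0 (3.19% and 0.936% of genes).

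Ifi27l2a was the third. It had 1013, 780 and 567 FPKM in ND, 801, 626 and 658 FPKM in HP and 1999, 317 and 1374 FPKM in HR. HR 1 and HR 3 were above all other libraries and HR 2 below all of them. Over 7 libraries HR minus ND was 1.32 (SE 0.25, adjusted p = 0.0401), and over 9 it was 0.32 and not called. Only leaving out ND 2 among the libraries kept this call. Without ND 3, any HP library, HR 1 or HR 3 adjusted p was 0.0519 to 0.179.

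Prone against resistant mice on the same diet asked which members track the prone state in eWAT. Over 7 libraries 2 were higher in HP and 1 lower, against 4.21% and 2.25% of genes. Ubd was higher by 1.11 (SE 0.24, adjusted p = 0.0483), Oas1a by 0.97 (SE 0.16, adjusted p = 0.0279), and Ifi27l2a lower, at -1.26 (SE 0.23, adjusted p = 0.0311). Each call was lost without any 1 of HP 1, HP 2, HP 3, HR 1 or HR 3, with adjusted p of 0.104 to 0.278 for Ubd, 0.0657 to 0.197 for Oas1a and 0.0767 to 0.199 for Ifi27l2a. Over 9 libraries 0 members were called, against 0% of all genes, with 2 at an unadjusted p under 0.05 (limma), against 4.71% of genes. HP lay wholly above HR for 5 members and below for 11 over 7 libraries (28.2% and 21% of genes), and over 9 for 4 and 0 (16.7% and 5.59% of genes). All 7 GTPases were lower in HP than HR over 7 libraries, with a median of -0.45 and 0 called. Over 9 libraries 5 of the 7 were higher, with a median of 0.08.

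In liver, members were called in both directions in prone mice against normal diet, in shares near those of all genes. Ubd, Ifi27l2a, Cxcl10, Isg15, Psmb9, Cxcl9, Xaf1 and Bst2 rose, and Irgm2, Rsad2, Parp14, Irf9 and Iigp1 fell. That is 22.9% of 35 members higher and 14.3% lower, near the 17.6% and 14.1% of 10633 genes tested. The median was -0.25 for the members and -0.02 for all genes. Quantile normalization made the split 6 higher and 7 lower, and rescaling to the same sum 4 and 11, with the median of all genes at -0.20. Among the liver ND libraries, ND 1 was the lowest for 30 of 36 members and ND 3 the highest for 23. Of the members that rose, Isg15, Psmb9, Cxcl9, Xaf1 and Bst2 were not called without ND 1. Without ND 3 there were 7 calls and without HP 2 there were 5. Over 16 alternatives, in processing or in libraries left out, Isg15 and Bst2 were called in 9, Cxcl9 in 7 and Iigp1 in 5. Psmb9 and Xaf1 were called in 12 of the 16 and Parp14 in 11. HP 2 is the library with the most skeletal muscle transcripts, and their part in the result was not tested.

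Ubd had 0.0836, 1.21 and 0.827 FPKM in ND, 5.23, 10.7 and 10.5 FPKM in HP and 1.83, 1.20 and 3.40 FPKM in HR. Every HP value was above every other liver value, though far below those of eWAT HP. The HP minus ND difference was 2.53 (SE 0.33, adjusted p = 0.000684), called in all 16 alternatives. A pseudocount of 0.1 in place of 1 raised it to 3.81.

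Ifi27l2a had 5.65, 6.15 and 9.10 FPKM in ND, 14.6, 26.8 and 18.5 FPKM in HP and 9.18, 8.08 and 6.89 FPKM in HR. The HP group did not overlap with ND or HR. The HP minus ND difference was 1.38 (SE 0.22, adjusted p = 0.00179), called in all 16 alternatives. In eWAT, HP was below HR 1 and HR 3 for this gene and above HR 2.

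Both chemokines rose in liver. Cxcl10 had 2.99, 5.77 and 5.75 FPKM in ND, 9.68, 12.4 and 9.50 FPKM in HP and 3.98, 5.88 and 8.06 FPKM in HR (HP minus ND 1.01, SE 0.25, adjusted p = 0.0116, and 0.0513 without HP 2). Cxcl9 had 1.26, 2.52 and 2.76 FPKM in ND, 3.51, 3.98 and 4.44 FPKM in HP and 1.40, 1.58 and 3.19 FPKM in HR. HP was above ND and HR in each case. The Cxcl9 difference was 0.68 (SE 0.24, adjusted p = 0.0487), not called without ND 1, ND 3, HP 1, HP 2, HP 3 or HR 2, with adjusted p of 0.0535 to 0.181.

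Isg15 had 13.4, 19.6 and 19.8 FPKM in ND, 29.7, 54.4 and 22.1 FPKM in HP and 26.6, 18.3 and 26.3 FPKM in HR. HP 2 was the highest and HP 3 was below 2 HR libraries. The HP minus ND difference was 0.89 (SE 0.28, adjusted p = 0.0353), lost without ND 1, ND 3, HP 1 or HP 2 at adjusted p of 0.0503 to 0.127.

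Psmb9, an immunoproteasome subunit, had 7.96, 16.2 and 12.6 FPKM in ND, 17.8, 30.0 and 21.2 FPKM in HP and 13.1, 11.5 and 19.1 FPKM in HR. HP was wholly above ND and overlapped with HR. The difference was 0.87 (SE 0.26, adjusted p = 0.0277), lost without ND 1, ND 3 or HP 2 at 0.0606 to 0.115. Psmb8, the subunit that rose in eWAT, had a liver difference of 0.16 (adjusted p = 0.55).

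Xaf1, a pro-apoptotic partner of XIAP, had 6.80, 9.03 and 10.1 FPKM in ND and 10.9, 19.1 and 12.7 FPKM in HP. HP lay above ND, with HP 2 the highest. It rose by 0.64 (SE 0.20, adjusted p = 0.0324) and was not called without ND 1 or HP 2 (0.124 and 0.122). Bst2 had 94.8, 123 and 102 FPKM in ND and 135, 177 and 141 FPKM in HP. HP was again wholly above ND. Its difference was 0.50 (SE 0.16, adjusted p = 0.0361), lost without ND 1, ND 3, HP 2 or HP 3 at 0.0514 to 0.141.

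Of the members that fell in liver, Irgm2 had 24.3, 38.9 and 44.5 FPKM in ND, 15.3, 14.7 and 14.7 FPKM in HP and a mean of 25.9 ± 10 FPKM in HR (SD, n = 3). The 3 HP libraries were nearly equal and below all others. The difference from ND was -1.17 (SE 0.26, adjusted p = 0.00749), called in all 16 alternatives. Igtp, with the similar upstream stretch, had 24.5, 43.0 and 44.5 FPKM in ND and 26.3, 36.6 and 28.0 FPKM in HP (-0.26, adjusted p = 0.565).

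Iigp1 had 155, 145 and 212 FPKM in ND and 132, 122 and 126 FPKM in HP (-0.41, SE 0.14, adjusted p = 0.0461). HP lay below ND in every library, but the call was kept only without ND 2 among the libraries left out, and was otherwise at adjusted p of 0.0585 to 0.169. Irgm1 had 57.6, 59.2 and 77.8 FPKM in ND and 50.7, 44.5 and 46.5 FPKM in HP (-0.44, adjusted p = 0.0521). All 7 GTPases had lower values in liver HP than ND, with a median of -0.40 against -0.02 for all genes, and this held under a pseudocount of 0.1, quantile normalization and rescaling.

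Rsad2 had 9.46, 8.71 and 8.84 FPKM in ND, 5.88, 4.38 and 3.54 FPKM in HP and 4.71, 8.01 and 8.99 FPKM in HR. HP was below ND throughout, and HR 1 lay among the HP values. The difference was -0.86 (SE 0.21, adjusted p = 0.0117), called in all 16 alternatives. Parp14 had 5.77, 8.83 and 8.99 FPKM in ND and 3.93, 4.61 and 5.41 FPKM in HP (-0.64, SE 0.18, adjusted p = 0.0232), lost without ND 2, ND 3, HP 1 or HP 2 at 0.0605 to 0.0886.

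Irf9, the DNA-binding part of the type I interferon complex, had 29.8, 37.5 and 36.8 FPKM in ND, 22.7, 24.7 and 24.8 FPKM in HP and 31.8, 26.7 and 29.9 FPKM in HR. HP was below both other groups. The difference from ND was -0.50 (SE 0.12, adjusted p = 0.0118), called in all 16 alternatives. Irf7 had 23.3, 36.7 and 38.4 FPKM in ND and 22.0, 27.9 and 19.3 FPKM in HP (-0.47, adjusted p = 0.0776). Stat2 (-0.29, adjusted p = 0.139), Usp18 (-0.25, adjusted p = 0.307) and the 3 RNA sensors were not called either. In liver 8 of 35 members had HP wholly above ND and 8 wholly below, against 23.6% and 21.3% of genes tested.

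**Figure D3:**
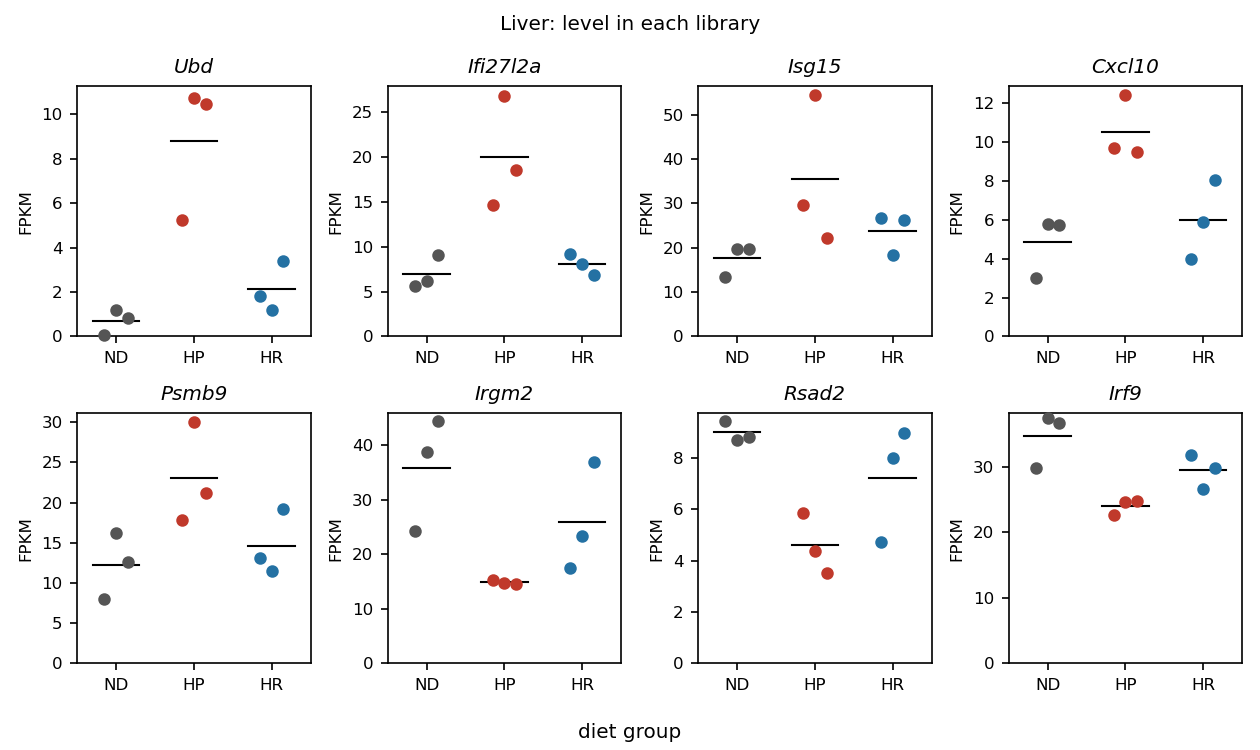
FPKM of 8 members in liver by diet group, each panel with its own scale from 0. Points are libraries and bars are means of 3. Ubd, Ifi27l2a and Cxcl10 are highest in HP, and Irgm2 and Irf9 are lowest in HP with little spread between the 3 HP libraries.

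In liver, resistant mice against normal diet gave 0 calls among 35 members, against 2.28% of all genes higher and 0.969% lower (limma), with 6 members at an unadjusted p under 0.05, against 19.8% of genes. HR lay wholly above ND for 1 member and below for 2, Stat2 and Dhx58, against 14.8% and 11% of genes. Stat2 had the smallest adjusted p of the regulators, with 18.9 ± 1.87 FPKM in HR against 26.5 ± 4.10 in ND (SD, n = 3 each, -0.47, adjusted p = 0.114). Prone against resistant mice gave 2 higher members and 0 lower, against 7.2% and 3.94% of genes. Ubd was higher by 1.64 (SE 0.33, adjusted p = 0.0153), which was lost without HP 2, HP 3 or HR 2 at 0.0514 to 0.0691. The call was kept in 11 of 16 alternatives. Ifi27l2a was higher by 1.18 (SE 0.22, adjusted p = 0.0111) and called in all 16 alternatives. HP lay wholly above HR for 7 members and below for 5, against 17% of genes each way. The number called was 1 without HP 2, HP 3 or HR 2 and 4 without ND 1 or HR 1.

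Whether the tissues responded differently was tested as the eWAT difference minus the liver difference, over the 16 libraries without eWAT ND 1 and HR 2. For HP against ND, 7 of 35 members (20%) were higher in this contrast and 3 (8.57%) lower, against 16.8% and 11.2% of 13690 genes. The members with a larger value in eWAT were Ubd at 2.46 (SE 0.49, adjusted p = 0.00241), Oas1a at 1.87 (adjusted p = 9.69e-05), Oasl1 at 1.76 (adjusted p = 0.00129), Rsad2 at 1.58, Dhx58 at 1.22, Irf9 at 0.95 and Parp14 at 0.90. Those with a larger value in liver were Cxcl10 at -1.55, Cxcl9 at -1.51 and Ifi27l2a at -1.32, with adjusted p of 0.00674, 0.00552 and 0.0119.

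Rsad2, Irf9 and Parp14 had positive values in eWAT and fell in liver, and Cxcl9 fell in eWAT over 7 libraries (a positive value over 9) and rose in liver. The Ubd difference depended on the pseudocount, at 1.37 with 0.1 in place of 1 (adjusted p = 0.286). Dhx58 was not called without eWAT ND 2 (0.79, adjusted p = 0.0841) nor Parp14 without liver ND 3 (adjusted p = 0.0519). Over all 18 libraries 2 of the 10 remained past the threshold, Oas1a and Oasl1. There Cxcl9 was at -0.39 (adjusted p = 0.822). Of the GTPases Iigp1 was furthest from 0 in this contrast (-0.88, adjusted p = 0.0816), and 0 of 7 were called.

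For HR against ND, Ubd at 3.00 (SE 0.52, adjusted p = 0.00349) and Oas1a at 1.04 (SE 0.26, adjusted p = 0.0263) were larger in eWAT, 5.71% of members against 5.62% of genes, and none was lower, against 1.57%. With a pseudocount of 0.1 Ubd was at 2.30 (adjusted p = 0.183). Oas1a was not called without eWAT HR 3, liver ND 2, liver ND 3, liver HR 1 or liver HR 2, at 0.0549 to 0.121. Without eWAT ND 3 there were 7 calls, and without eWAT HR 3, liver ND 2, liver ND 3 or liver HR 2 there was 1. Over all 18 libraries there were 0.

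**Figure D4:**
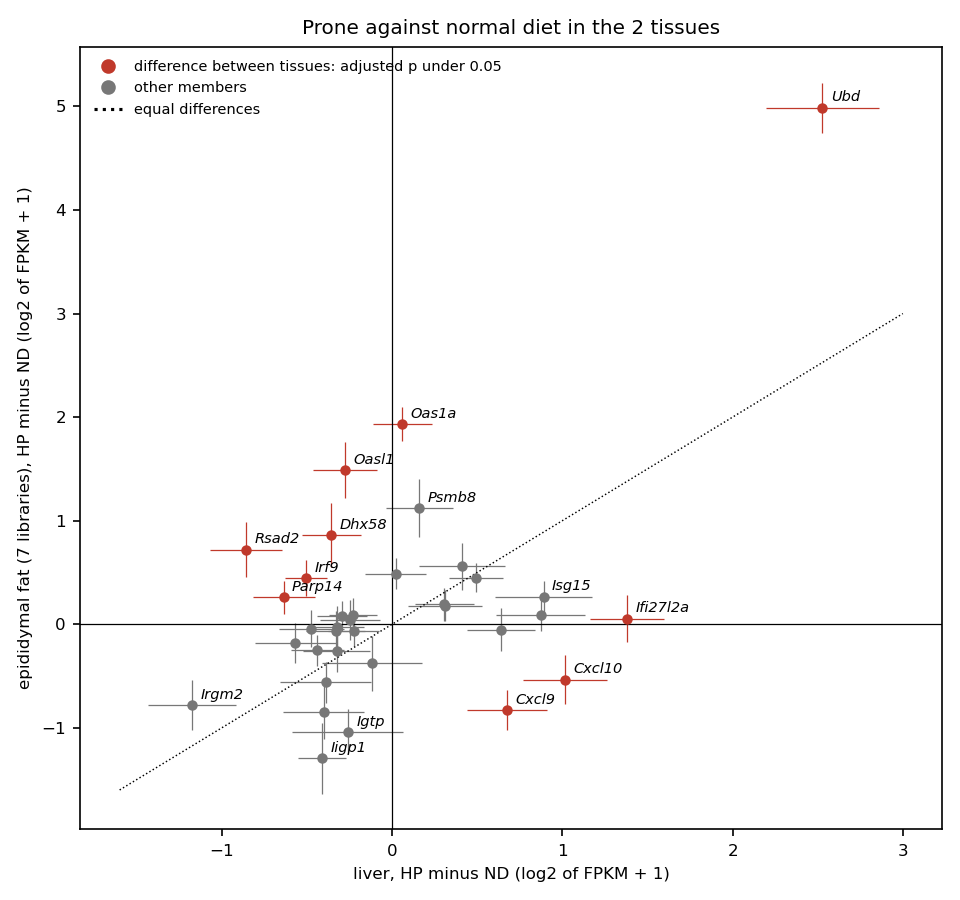
Each point is a member, with the HP minus ND difference in liver on the horizontal axis and in eWAT (7 libraries) on the vertical axis, both on the log2(FPKM + 1) scale, with standard errors as bars. Red points passed the test of the tissue difference, and the dotted line marks equal differences. Ubd is far above the line, Oas1a and Oasl1 are raised along the eWAT axis alone, and Cxcl9, Cxcl10 and Ifi27l2a lie below the line.

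The rest of the pathway was read from a list of 102 further genes, 99 of them in the table. None of the 11 interferon ligand genes reached the level for a test, and together they summed to at most 0.457 FPKM in any library, with Ifng at 0.143 FPKM or below. In each group 7 to 9 of the 11 are listed at 0 in every library, and so are the widely expressed Tyk2, Psmb10 and H2-T23 in all 18 libraries, so that a listed 0 may not be a measured absence. In eWAT HP against ND over 7 libraries, 29 of 80 tested pathway genes were higher and 3 lower (36.2% and 3.75%, against 15.7% and 7.4% of all genes). Over 9 libraries 2 of 80 were higher and 0 lower, against 2.07% and 0.0416% of all genes, and the gene values that follow are over 7. Of 5 interferon receptor genes 4 rose, Il10rb (1.51), Ifnar1 (1.04), Ifngr2 (0.87) and Ifnar2 (0.75). Irf5, which is active in macrophages, rose by 2.60 and the kinase gene Jak1 by 0.64. Of 10 nucleic acid sensors and adaptors 6 rose, among them Aim2 (2.35), Tlr7 (2.06) and Tmem173, the STING gene (0.93).

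Irf1 had an eWAT difference of -0.05 (adjusted p = 0.814) and Mx1 of 0.65 (adjusted p = 0.124), neither called. Among 39 other interferon-stimulated genes 9 rose, led by Slfn2 (2.68), and 3 fell. The 3 were the GTPases Tgtp1 (-1.68), Tgtp2 (-1.48) and Gbp4 (-1.44). Tgtp1 and Tgtp2 are near copies, so reads could be shared between them. Of 14 class I presentation genes 7 rose, among them Calr (1.16) and H2-K1 (1.14).

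In HR against ND over 7 libraries 7 of the 80 pathway genes were higher and 0 lower (8.75% and 0%, against 3.85% and 0.291% of all genes). In HP against HR 8 were higher and 1 lower (10% and 1.25%, against 4.21% and 2.25%). Over 9 libraries no gene of the table was called in either comparison. Gbp4 was the one that was lower (-1.20, adjusted p = 0.0473). Irf5 was higher in both, by 1.84 and 0.76.

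In liver HP against ND, 15 of 73 tested pathway genes were higher and 10 lower (20.5% and 13.7%), near the 17.6% and 14.1% of all genes. Of 37 other interferon-stimulated genes 6 rose, led by the membrane proteins Ifitm1 (1.34) and Ifitm3 (0.78), and 8 fell, among them Parp9 (-1.02) and its partner Dtx3l (-0.69). Of 14 class I genes 7 rose, such as the proteasome activator gene Psme1 (0.76) and B2m (0.67). The sensor adaptor Mavs fell by 0.50 and Jak1 by 0.50.

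Markers of other cells moved beside these results. In eWAT all 6 macrophage markers rose in HP and in HR over 7 libraries, and over 9 libraries 3 of 6 in HP and 0 of 6 in HR were called (limma). Their sum was 404 and 522 FPKM in ND 3 and ND 2, 2803 to 3952 in HP, and 1333 and 1646 in HR 1 and HR 3. It was 53.0 in ND 1 and 413 in HR 2, so the 3 groups had the same order as for Ubd and Oas1a over 7 libraries. Neutrophil markers summed to 8.55 to 10.9 FPKM in ND 2 and ND 3 and 57.2 to 65.3 in HP, with 2 of 3 tested genes called over 7 libraries and 0 of 3 over 9. In HR 1 and HR 3 they summed to 31.2 and 50.6 FPKM. B cell markers summed to 2.19 and 3.00 FPKM in ND 3 and ND 2 and 7.28 to 7.80 in HP. They summed to 5.13 and 6.01 FPKM in HR 1 and HR 3, so both lists had the same order as the macrophage markers. The part of these markers in the result was not tested.

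T cell markers summed to 4.46 and 7.58 FPKM in ND 3 and ND 2 and 5.42 to 9.26 in HP, and 0 of 2 tested genes were called (limma). Natural killer cell markers had 0 of 4 called. In liver 0 of 4 macrophage and 0 of 5 Kupffer cell markers were called in HP against ND, and the macrophage sums were 35.8 to 46.4 FPKM in ND and 37.5 to 59.6 in HP. The 2 tested neutrophil genes rose, with sums of 1.91 to 1.96 and 5.01 to 6.44 FPKM. In the plasmacytoid dendritic cell list, Ly6d rose by 2.87 (limma adjusted p = 0.00294). The list summed to 105 to 135 FPKM in ND and 157 to 253 in HP, and the member Bst2 made up most of that sum. Its other markers had lower means in HP than in ND, none of them called. They were Siglech (0.249 against 0.299 FPKM), Ccr9 (0.109 against 0.141 FPKM) and Tcf4 (2.39 against 2.89 FPKM). The endothelial genes Kdr (-0.84) and Tek (-0.44) fell, with sums over 5 genes of 16.8 to 19.4 FPKM in ND and 10.2 to 13.1 in HP. Of the hepatocyte genes Cps1 fell (-1.94) and Ttr rose (1.05). T cell and natural killer markers were too low for a test in liver, at no more than 3.80 and 1.98 FPKM in sum. Fabp4 and Cidec, genes of fat cells, rose in liver HP, where 5 adipocyte markers summed to 107 to 152 FPKM against 36.7 to 64.8 in ND. These 2 genes made up most of that sum, with HP means of 34.2 and 88.0 FPKM. Adipoq, Lep and Plin1 had HP means of 0.525, 0.241 and 0.133 FPKM and were too low for a test. The part of these markers was not tested.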

How the data were processed

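Messenger RNA (TRIzol extraction, TruSeq libraries, per the labels' protocols) was measured in 18 libraries. The deposited values are FPKM per gene, made by the authors with CASAVA 1.8.2, STAR 2.4.0 and Cufflinks 2.1.1, per the submitters' processing notes. For genome build, annotation and strand the sources used here give nothing. FPKM hold no read counts, so depth is unknown and no counting interval is given. Related copies (Oas1a and Oas1g, Tgtp1 and Tgtp2, and the Gbp and Irgm families) could share reads.

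Identifiers were named with GENCODE M21 (22671 of 23474). For each tissue, log2(FPKM + 1) was fitted for genes that reached 1 FPKM in 3 or more libraries, over all 3 groups with limma 3.58.1 (R 4.3.3, empirical Bayes with a variance trend), and p-values were Benjamini-Hochberg adjusted over all genes tested, two-sided, with a threshold of 0.05. Fold changes on this scale understate changes of low genes. eWAT was fitted with 9 libraries and with 7, and the tissue contrast with 16. The scripts were tested on simulated data. Since the labels do not name separate animals per library, p-values measure the spread between libraries, which may be technical.

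Members and lists were chosen with earlier results of these data known. Library values are given for members past the threshold, up to 8 per comparison, for those without overlap in both tissues, and for the regulators Irf7, Irf9, Stat2 and Usp18. Other lists name up to 4 genes past the threshold by size of difference, or otherwise Irf1, Mx1 and Ifng, and 1 further gene of that rule is not reported here. Further library values, chosen after they were seen, are given for context. Alternatives were another pseudocount, no filter, quantile normalization, rescaling to the same sum, no variance trend, a replicate block, only the groups compared, and leaving out libraries. Figures used matplotlib 3.10.9 under Python 3.11.15.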

Additional observations from a re-analysis of the deposited data

Results flagged for a closer look

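The difference between the tissues passed the limma test for 12 results, given as the eWAT minus the liver value on the log2(FPKM + 1) scale over 16 libraries. Of all genes tested, 16.8% passed as positive and 11.2% as negative for HP, and 5.62% and 1.57% for HR. The shares of members were near these. For HP against ND this signed contrast was positive for Ubd (2.46), Oas1a (1.87), Oasl1 (1.76), Rsad2 (1.58), Dhx58 (1.22), Irf9 (0.95) and Parp14 (0.90). It was negative for Cxcl10 (-1.55), Cxcl9 (-1.51) and Ifi27l2a (-1.32). The sign does not say in which tissue the change was larger. Rsad2, Irf9 and Parp14 were called in liver, where they fell, and not in eWAT. Cxcl9 fell in eWAT over 7 libraries and rose in liver. For HR against ND the contrast was positive for Ubd (3.00) and Oas1a (1.04).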

How the results depend on the processing

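Over 42 calls of single members and 745 alternative settings, 743 kept the direction and 572 stayed past the threshold. The exceptions in direction were Iigp1 (0.23) and Cxcl9 (0.28) for eWAT HP against ND, called over 7 libraries and refitted with all 9, an alternative added after seeing the data. That refit also moved the count of calls from 7 to 2, for HR against ND from 3 to 0 and for HP against HR from 3 to 0. Counts of members called were less steady. For HP against ND in liver the count went from 13 to 6 without a filter, and for HP against HR from 2 to 1 with a pseudocount of 0.1 or no filter and to 4 with rescaling. In eWAT over 9 libraries HP against ND went from 2 to 1 with a pseudocount of 0.1 or rescaling and to 0 with quantile normalization. Leaving out the 4 libraries with spermatid transcripts leaves ND 2 alone in ND, so no counts of calls are given for that fit. Over 7 libraries HR against ND went from 3 to 1 with no filter or only the 2 groups compared, and HP against HR from 3 to 0 with no filter and 1 with quantile normalization. The tissue difference went from 10 to 2 for HP and from 2 to 0 for HR over all 18 libraries, and the latter to 5 with quantile normalization or rescaling. The cause was not tested. Rescaling moved the median of all genes from -0.02 to -0.20 for liver HP against ND and from 0.09 to 0.35 for eWAT HP against ND over 9 libraries.

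Leaving out 1 library gave 5 to 13 calls for liver HP against ND, 0 for HR against ND and 1 to 4 for HP against HR. In eWAT over 9 libraries it gave 0 to 3, 0 to 1 (1 without HR 2) and 0, and over 7 libraries 3 to 12, 1 to 4 and 0 to 3, in the order HP against ND, HR against ND and HP against HR. The tissue difference had 9 to 13 for HP and 1 to 7 for HR.

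Libraries of equal number in different diet groups of a tissue were compared after group means were subtracted. Of these pairs, 4 of 9 in eWAT and 2 of 9 in liver were correlated above 0.1. The correlations ran from -0.843 to 0.625 in eWAT and from -0.348 to 0.428 in liver. Whether equal numbers in eWAT and liver belong together was not tested, and the tissue contrast did not pair them. With a replicate block the counts were 4 for liver HP against HR, 0 for eWAT HP against ND over 9 libraries, 4, 1 and 0 over 7 libraries in the order above, and 4 for the tissue difference of HR. Depth is unknown, so the precision of low values such as those of Oas3 and of Ubd in liver ND cannot be given.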
